A study of Mus musculus with 21 samples.

Results

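The miRNAs mmu-miR-140-5p, mmu-miR-140-3p, mmu-miR-455-5p and mmu-miR-455-3p (below without the species prefix) are the mature products of 2 hairpins known from cartilage. They were taken by name from the miRNA table of mouse cochlea and superior olivary complex (SOC), where they are 4 of 1647 miRNAs. All 4 passed the filter on low values in both organs, which asked for at least 2 replicates of some time point above 1 CPM (counts scaled to the library total). All animals were WT with no treatment. The cochlea libraries came from the inner ear sensory epithelium (SE) of C57BL/6JOlaHsd mice, with 2 libraries of age E16, 4 of P0 and 4 of P16. The SOC libraries came from C57Bl6/J mice, with 4 libraries of age E16, 4 of P0 and 3 of P16, and their cell type is labelled neuronal. Each library pooled tissue of several animals. The paper gives both sexes for the cochlea mice and for the SOC mice of P0 and P16. It gives no sex for the SOC embryos of E16. E16 SOC tissue was cut from whole frozen embryo heads, whereas P0 and P16 SOC tissue was cut from brains already freed from the skull, so age and dissection cannot be told apart in the SOC.

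A miRNA hairpin is cut by Dicer into a 5p and a 3p strand, and the strand held by an Argonaute protein pairs with target mRNAs mainly through its seed. miR-140 and miR-455 are best known from chondrocytes, the cells that make cartilage matrix, and the cartilage regulator Sox9 acts on both host loci. The cochlear duct lies in the otic capsule, a cartilage shell in the embryo that is replaced by bone after birth, so these miRNAs were read over time as possible markers of capsule or skull tissue in the dissected organs.

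The mature sequences are shown because the 2 arms of a hairpin carry unrelated seeds and because the results below are given for each arm. Bases 2 to 8, the seed, are in capitals.
miR-140-3p: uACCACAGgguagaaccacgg
miR-455-5p: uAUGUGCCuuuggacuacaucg
miR-455-3p: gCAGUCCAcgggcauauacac
They are RefSeq sequences on GRCm38.p6, at chr8:107551288-107551308, chr4:63256867-63256888 and chr4:63256904-63256924, all on the plus strand. The table matched 3 of the 4 arms, and miR-140-5p is named only. In the Mir140 hairpin, at chr8:107551244-107551313 on the plus strand, the 3p arm is in capitals and the lower-case stretch before it holds the 5p side of the stem.
Mir140: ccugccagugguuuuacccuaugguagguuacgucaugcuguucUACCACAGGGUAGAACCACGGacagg
In the GENCODE annotation of GRCm38, Mir140 lay on the strand of its host Wwp2, a ubiquitin ligase gene, in intron 16 of Wwp2-201. It also fell in intron 15 of Wwp2-204, in intron 7 of Wwp2-205 and inside the single exon of Wwp2-206. Mir455 lay on the strand of Col27a1, a fibrillar collagen gene of cartilage, in intron 10 of Col27a1-201, Col27a1-202 and Col27a1-203 and in intron 7 of Col27a1-207. Of 1738 mature miRNAs, 1 other shared the seed of miR-140-3p (miR-497b, 2 counts over all cochlea libraries and 20 over all SOC libraries). The seed of miR-455-5p was shared by miR-5129-3p (1 and 41 counts), and the seed of miR-455-3p by no other. The longest stretch that miR-140-3p had in common with another mature miRNA was 9 bases, and it was 8 bases for each miR-455 arm.

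Depth differed between the organs, from 124400 to 447419 counts per cochlea library and from 8309669 to 18053698 per SOC library. Each organ had its own mouse strain and its own kits (SMARTer smRNA-Seq for the SE, TruSeq Small RNA for the SOC). Organ, strain and kit therefore cannot be told apart where levels differ, and the tests below compare time points within an organ. The SOC libraries fell into 3 sets by the share of their counts held by a pair of abundant miRNAs. In set A (E16 replicates 2 and 3, P0 replicates 2 and 3) miR-99b-5p took 17.2 to 19.6% of counts. In set C (P0 replicate 4, P16 replicates 2 and 3) miR-191-5p took 0.277 to 0.322%, against 3.84 to 8.15% elsewhere. Set B held E16 replicates 1 and 4, P0 replicate 1 and P16 replicate 1. As a check of the labels, the hair cell miRNAs (miR-183-5p, miR-96-5p and miR-182-5p) summed to 16684 to 55846 normalised CPM in the cochlea, and the neuronal list to 40168 to 118870 in the SOC. The SOC libraries of E16 also held 85032 to 164652 normalised CPM of the hair cell miRNAs, more than any cochlea library, and those of P16 held 521 to 3501.

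In the cochlea, miR-455-3p stood apart from the other 3 arms in level and in course. It ranked 10th of all miRNAs by mean CPM, with 1.95% of counts, against 91st for miR-140-5p, 96th for miR-140-3p and 356th for miR-455-5p. It rose from E16 to P0, while both miR-140 arms fell to P0 and rose again by P16. Values are normalised CPM (CPM scaled with TMM factors), and in bulk tissue fewer cells of a type and less RNA per cell cannot be told apart.

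miR-455-3p was at 4245 and 4639 normalised CPM at E16. It was at 19976, 19724, 16252 and 18896 at P0, and at 26031, 46550, 23559 and 29302 at P16 (1559 to 5982 counts a library). No library of one time point overlapped another, and P16 replicate 2, the highest, also had the lowest TMM factor of the organ, 0.648. The group means were 4442 ± 278 (SD, n = 2), 18712 ± 1704 (n = 4) and 31360 ± 10396 (n = 4). With edgeR's quasi-likelihood test the P0 vs E16 log2 fold change was 2.07 (SE 0.45, FDR = 5.92e-05), a 4.21-fold rise that did not pass with all 21 libraries in one fit (log2 2.08, edgeR FDR = 0.0526). At P16 vs E16 it was 2.82 (SE 0.47, FDR = 3.90e-08), or 7.06-fold. At P16 vs P0 it was 0.74 (SE 0.33, edgeR FDR = 0.123) and did not pass the threshold, although DESeq2 gave 0.83 with an FDR of 0.00516.

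For miR-140-5p, the guide strand most studied in cartilage, the E16 libraries stood at 1198 and 1200 normalised CPM. At P0 the values were 230, 146, 161 and 205, and at P16 they were 903, 412, 1055 and 899. Every P0 library lay below every other library of the organ, and P16 replicate 2 was low within its group. The fall at P0 was 6.45-fold (log2 -2.69, SE 0.42, edgeR FDR = 6.28e-09) and the rise from P0 to P16 was 4.41-fold (log2 2.14, SE 0.37, edgeR FDR = 3.76e-07). At P16 vs E16 the log2 change of -0.55 (SE 0.42, edgeR FDR = 0.301) did not pass, although the 2 groups did not overlap.

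miR-140-3p, the other arm of that hairpin, was at 866 and 797 normalised CPM at E16. It was at 390, 336, 244 and 404 at P0 and at 1132, 856, 750 and 491 at P16. P0 was again the low point, with no overlap with either neighbour, whereas P16 spread across the E16 values. The log2 change was -1.27 at P0 vs E16 (SE 0.42, edgeR FDR = 0.0131) and 1.23 at P16 vs P0 (SE 0.36, edgeR FDR = 0.00647). At P16 vs E16 it was -0.04 (SE 0.43, edgeR FDR = 0.968). With all 21 libraries in one fit neither the fall (log2 -1.26, edgeR FDR = 0.215) nor the later rise (1.32, 0.186) passed. The fall at P0 rested on 38 to 73 counts a library, and it lost the threshold without E16 replicate 1 (log2 -1.22, edgeR FDR = 0.136), without E16 replicate 2 (-1.37, 0.0755) or without P0 replicate 3 (-1.14, 0.0516).

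miR-455-5p was near the limit of depth in the cochlea. It had 23 and 15 counts at E16, then 3, 4, 0 and 2 at P0 and 20, 2, 4 and 5 at P16. The count of 0 in P0 replicate 3 allows up to 16.5 CPM (3 counts, counting error only). Means were 44.3 ± 25.9 normalised CPM at E16 (SD, n = 2), 11.7 ± 8.50 at P0 (n = 4) and 45.3 ± 38.8 at P16 (n = 4). The log2 changes of -1.80 at P0 vs E16 (SE 0.84, edgeR FDR = 0.0960), 0.12 at P16 vs E16 (SE 0.76, 0.936) and 1.92 at P16 vs P0 (SE 0.78, 0.0824) did not pass. With these few counts no change of this arm passed in the main test. Over 20 settings of the processing, the main one included, this arm passed in 1 at P0 vs E16 and in 1 at P16 vs P0. At P16 vs E16 it passed in none.

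A miRNA was called differentially expressed (DE) with an FDR under 0.05 over all miRNAs tested in the organ, a fold change over 1.5 and no overlap of replicates. In the cochlea 3 of the 4 arms were DE at P0 vs E16, where 24.4% of 896 tested miRNAs were. Of these, 1 was higher (7.81% of all) and 2 were lower (16.6% of all), and all 4 arms were without overlap between the ages, as were 48.2% of all. At P16 vs E16 it was 1 of 4, with 29.6% of all, and the 1 arm was higher (10.9% of all were DE and higher, 18.6% DE and lower). At P16 vs P0 it was 2 of 4, with 10.5% of all, and both were higher (3.91% of all were DE and higher, 6.58% DE and lower). Groups were without overlap for 2 of 4 arms at P16 vs E16 (46.2% of all) and 3 of 4 at P16 vs P0 (16.3% of all). These shares of all include miRNAs with few counts. Among the 173 miRNAs with at least 10 counts in every cochlea library, 93 were DE at P0 vs E16. At P16 vs E16 it was 104 of the 173, and at P16 vs P0 it was 54. The shares of all are thus a low background for the arms with more counts. The median log2 change of the 4 arms was -1.54, 0.04 and 1.57, beside 0.00, -0.09 and 0.05 over all tested miRNAs. With library totals in place of TMM factors the median of all miRNAs moved to -0.38 at P0 vs E16 and -0.58 at P16 vs E16, and no direction of a DE arm changed.

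**Figure D1:**
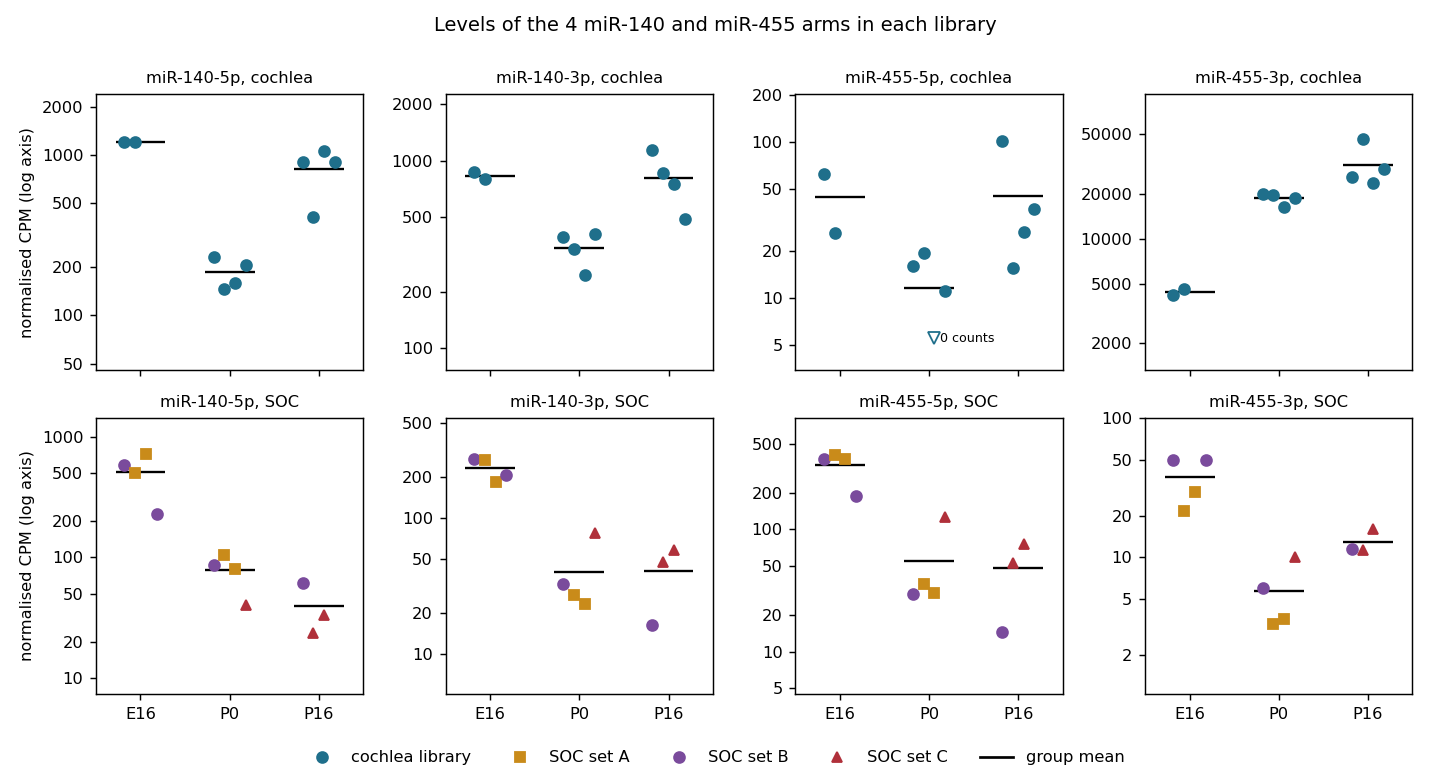
Normalised CPM (log axis, own range in each panel) of the 4 arms by time point, cochlea above and SOC below; each point is 1 library, shape and colour give the SOC library set, and black lines are group means. In the cochlea miR-455-3p is higher at P0 and at P16 (P16: 23559 to 29302 without P16 replicate 2, which is at 46550) than at E16, both miR-140 arms dip at P0, and in the SOC all 4 arms are highest at E16; the open triangle marks the library with 0 counts.

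In the SOC all 4 arms were highest at E16, and at P0 they were 5.77-fold to 6.62-fold lower. Their levels were modest: miR-140-5p ranked 128th by mean CPM, miR-455-5p 148th, miR-140-3p 168th and miR-455-3p 297th. The weaker arm of miR-455 in the cochlea was here the stronger one.

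miR-140-5p was at 579, 501, 718 and 227 normalised CPM at E16. At P0 it was at 86.2, 105, 80.0 and 40.0 and, at P16, at 60.9, 23.5 and 33.1. The lowest E16 library was still above the highest P0 library, while P0 and P16 overlapped. The log2 change was -2.70 at P0 vs E16 (SE 0.49, edgeR FDR = 0.00828) and -3.69 at P16 vs E16 (SE 0.57, edgeR FDR = 0.000503), a 12.9-fold fall. At P16 vs P0 it was -0.99 (SE 0.51, edgeR FDR = 0.179). Over all SOC libraries the fall at P16 vs E16 was the deepest of the 4 arms. Within set B, with 1 P16 library, the log2 change at P16 vs E16 was -2.73. There it was -3.87 for miR-140-3p, -4.30 for miR-455-5p and -2.12 for miR-455-3p, so the order of the arms differed within this set.

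For miR-140-3p the E16 values were 272, 265, 182 and 207 normalised CPM. P0 gave 32.6, 27.3, 23.3 and 77.5, and P16 gave 16.4, 47.6 and 57.9. Within both later groups the set C libraries were the high ones, and the P0 and P16 ranges overlapped. The log2 change was -2.53 at P0 vs E16 (SE 0.51, edgeR FDR = 0.0109), -2.51 at P16 vs E16 (SE 0.57, edgeR FDR = 0.00471) and 0.02 at P16 vs P0 (SE 0.52, edgeR FDR = 0.988).

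miR-455-5p followed the same pattern, with 376, 410, 375 and 190 normalised CPM at E16. P0 gave 29.3, 35.6, 30.2 and 125, and P16 gave 14.4, 53.3 and 76.2. P0 replicate 4, of set C, lay far above the other P0 libraries but below every E16 library. The log2 change was -2.62 at P0 vs E16 (SE 0.63, edgeR FDR = 0.0313), -2.82 at P16 vs E16 (SE 0.71, edgeR FDR = 0.00785) and -0.20 at P16 vs P0 (SE 0.64, edgeR FDR = 0.849). The P0 vs E16 call was lost without any 1 of E16 replicates 1, 2 and 3 and P0 replicates 1, 2 and 3 (log2 -2.66 to -2.37, edgeR FDR 0.0550 to 0.0778).

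miR-455-3p was low throughout, at 50.5, 21.6, 29.7 and 50.1 normalised CPM at E16. It fell to 6.01, 3.33, 3.60 and 10.001 at P0 and stood at 11.6, 11.2 and 16.1 at P16. It was the only arm whose P16 libraries all lay above its P0 libraries. The log2 change was -2.73 at P0 vs E16 (SE 0.47, edgeR FDR = 0.00653), -1.55 at P16 vs E16 (SE 0.50, edgeR FDR = 0.0249) and 1.18 at P16 vs P0 (SE 0.48, edgeR FDR = 0.0976). Without P0 replicate 4 the last of these passed (log2 1.58, edgeR FDR = 0.0179), as it did without P16 replicate 1 (1.41, 0.0455). The P16 vs E16 call did not hold without E16 replicate 1 or 4 or without P16 replicate 1 or 2 (log2 -1.39 to -1.35, edgeR FDR 0.0521 to 0.0900). Over all 26 settings of the processing, the main one and set B alone included, this call held in 19. The P0 vs E16 call held in 24 of the 26.

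All 4 SOC arms were thus DE and lower at P0 vs E16, where 6.63% of 694 tested miRNAs were DE, 4.18% lower and 2.45% higher. All 4 were also DE and lower at P16 vs E16, where 41.2% were DE, 20.0% lower and 21.2% higher. None was DE at P16 vs P0, where 16.1% were, 8.07% higher and 8.07% lower. Groups were without overlap for all 4 arms at P0 vs E16 (16% of all) and P16 vs E16 (52.2% of all) and for miR-455-3p at P16 vs P0 (28% of all). At an unadjusted p under 0.05 by edgeR, 1 of the 4 arms (miR-455-3p) passed there, and none was DE by DESeq2. The median log2 change of the arms was -2.66 at P0 vs E16 and -2.66 at P16 vs E16, beside 0.17 and 0.08 over all tested miRNAs.

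The library sets moved with some of these values, so the changes were also read within a set. From E16 to P0 the arms were lower by log2 -2.72 to -3.58 in set A (2 libraries against 2) and by -2.23 to -3.27 in set B (1 against 2). From P0 to P16 in sets B and C, miR-140-5p, miR-140-3p and miR-455-5p were lower (log2 -0.50 to -1.03) and miR-455-3p was higher (0.94 in set B, 0.45 in set C), each with 1 P0 library. For miR-140-3p this was -0.99 within set B and -0.55 within set C, beside 0.02 over all SOC libraries. With the set as a covariate all 4 arms were still DE at P16 vs E16, at log2 -2.90 for miR-140-5p, -3.79 for miR-140-3p, -4.38 for miR-455-5p and -2.24 for miR-455-3p.

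**Figure D2:**
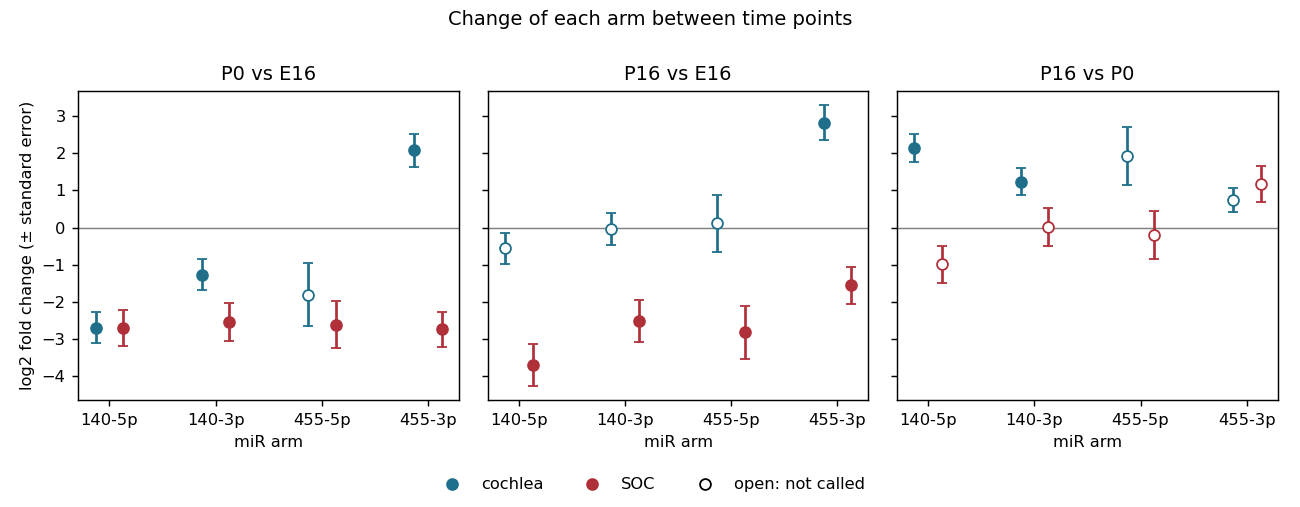
Log2 fold change (edgeR, bars are 1 standard error) of each arm in the 3 comparisons of ages, in the cochlea (blue) and the SOC (red); filled points were DE. At P0 vs E16 miR-455-3p is at 2.07 in the cochlea and -2.73 in the SOC, whereas miR-140-5p is at -2.69 and -2.70.

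The course over time was then compared between organs as an interaction in 1 edgeR model of all 21 libraries (SOC change minus cochlea change, log2). At P0 vs E16, 1 of the 4 arms differed, where 11.9% of the 545 miRNAs tested in both organs did. This was miR-455-3p at -4.90 (SE 0.75, edgeR FDR = 0.000156), which rose in the cochlea and fell in the SOC. miR-140-5p fell by nearly the same amount in both organs, with a difference of -0.11 (SE 0.68, edgeR FDR = 0.909), so a difference of either sign was not detectable at this spread. At P16 vs E16, 3 of 4 arms differed, with 16.9% of all: miR-455-3p at -4.53 (edgeR FDR = 0.000488), miR-140-5p at -3.30 (0.00427) and miR-140-3p at -2.61 (0.0255). miR-455-5p was at -3.04 (SE 1.12, edgeR FDR = 0.0622). At P16 vs P0, 1 of 4 arms differed, with 6.42% of all: miR-140-5p at -3.19 (SE 0.66, edgeR FDR = 0.0113), which rose in the cochlea and not in the SOC. The miR-140-3p difference at P16 vs E16 did not pass without E16 cochlea replicate 1 (-2.53, edgeR FDR = 0.0862), without replicate 2 (-2.27, 0.118) or with library totals (-1.83, 0.0894).

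The arms of miR-455 were unequal in opposite directions. In the cochlea the 3p arm held 98.5% (95% exact binomial interval 97.8 to 99.1%) and 99.4% of the hairpin's counts at E16 and 99.6 to 100% in the later libraries. In the SOC it held 4.999, 7.33, 11.8 and 20.9% at E16, 7.39, 8.55, 10.7 and 17.01% at P0 and 17.4, 17.4 and 44.6% at P16. No SOC library came near any cochlea library. These intervals and shares cover counting error only, and kits capture each sequence with its own efficiency, so a share of counts is not a share of molecules.

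Summed over libraries, the miR-455 arm ratio (log2 of 3p over 5p counts) was 8.86 in the cochlea and -2.99 in the SOC. That difference of 11.9 was the third in size of 190 hairpins with at least 100 counts in each organ, and the median absolute difference was 2.83. The dominant arm changed between organs in 42 of the 190 hairpins (22.1%). The miR-140 arm ratio was -0.20 in the cochlea against -1.04 in the SOC, and this difference of 0.83 ranked 163rd. Since organ, mouse strain and kit are the same split, none can be told apart as the source of these differences.

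**Figure D3:**
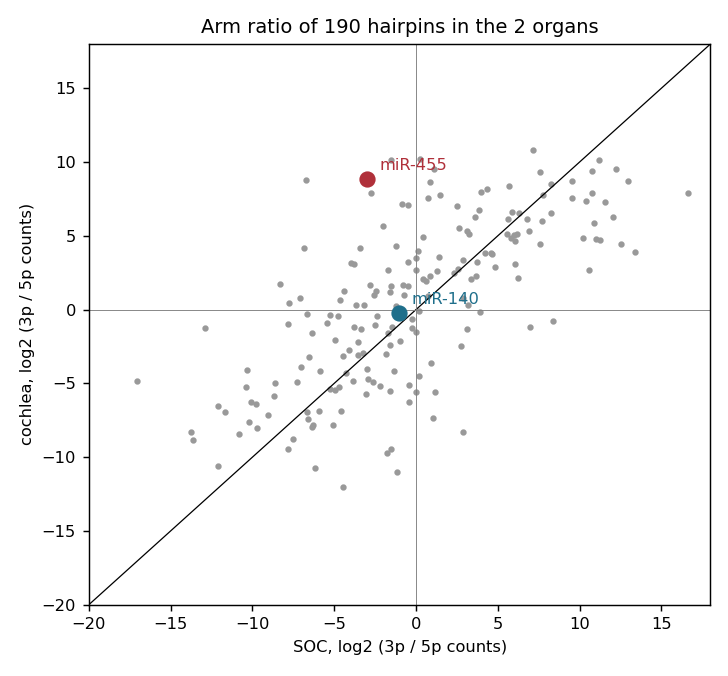
Log2 of 3p over 5p counts, summed over libraries, for 190 hairpins in the SOC (horizontal axis) and the cochlea (vertical axis); the line marks equal ratios. miR-455 lies at -2.99 in the SOC and 8.86 in the cochlea, far above the line, and miR-140 at -1.04 and -0.20, close to it.

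In the cochlea the 3p arm of miR-140 held 42.0 and 39.9% of counts at E16, 62.9, 69.7, 60.3 and 66.4% at P0 and 55.6, 67.5, 41.5 and 35.3% at P16. All P0 libraries were above both E16 libraries, and P16 spread over both. The mean log2 ratio of 3p to 5p went from -0.53 to 0.88 at P0 (exact two-sided permutation p = 0.0667, the smallest that 2 against 4 libraries allow), and no comparison of this ratio passed after adjustment. In the SOC the 3p arm held 20.2 to 47.7% in sets A and B at every age and 63.6, 65.9 and 66.9% in the 3 libraries of set C. At P0 the 1 set C library had 65.9% and the other libraries 20.6 to 27.4%. The part of the library set in the SOC share was not tested apart from age. Between sets C and B the miR-140 arm ratio differed by 1.84, the 91st in size of 248 hairpins, with a median absolute difference of 1.43 over all. The miR-455 arm ratio differed by -0.25 between these sets, ranking 223rd.

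**Figure D4:**
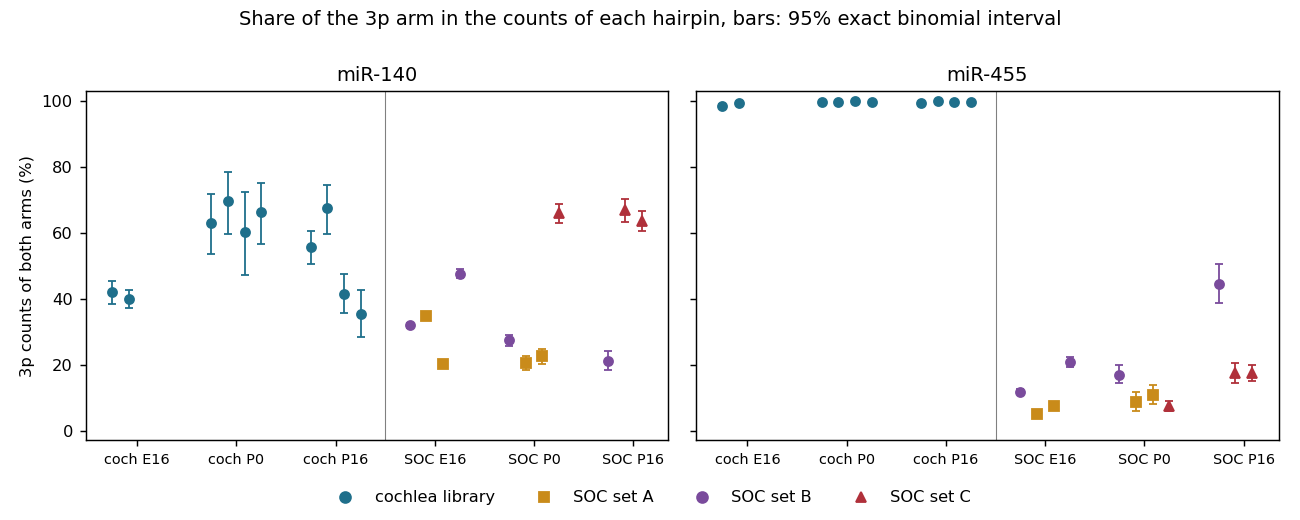
Percent of each hairpin's counts held by its 3p arm, by organ and time point; points are libraries, bars 95% exact binomial intervals, and shape and colour give the SOC library set. For miR-455 the cochlea lies at 98.5% or above and the SOC at 44.6% or below, and for miR-140 the set C libraries lie at 63.6 to 66.9%, above all other SOC libraries.

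Within a library the balance of the hairpins does not depend on scaling. In the cochlea the log2 ratio of both miR-140 arms to both miR-455 arms was -1.22 and -1.06 at E16, -5.35 to -4.95 at P0 and -5.19 to -3.68 at P16. miR-455 thus outweighed miR-140 in every cochlea library, and by more after birth. Against E16 the mean fell by 4.01 at P0 and it fell by 3.10 at P16, each with the smallest exact permutation p that 2 against 4 libraries allow (0.0667). In the SOC the ratio was 0.83 to 1.15 at E16, -0.20 to 1.77 at P0 and -0.02 to 1.57 at P16, with overlap among all 3 ages. Over the 18 arm and hairpin ratio comparisons made, the smallest Benjamini-Hochberg adjusted exact permutation p was 0.200. This included the rise of the miR-455 3p to 5p ratio from P0 to P16 in the SOC, by 1.495 on the log2 scale without overlap (exact permutation p = 0.0571).

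The 2 arms of a hairpin varied together to different degrees. Over the 10 cochlea libraries the Pearson r of log2 normalised CPM was 0.827 between the miR-140 arms and -0.165 between the miR-455 arms. Over the 11 SOC libraries it was 0.980 between miR-140-3p and miR-455-5p, the products of different hairpins, and 0.727 between the miR-140 arms. These values share libraries and time points and are a description. After subtracting group means, r was 0.923 for miR-140-3p with miR-455-5p and -0.641 for the miR-140 arms in the SOC, where the set C libraries were high for miR-140-3p and miR-455-5p and low for miR-140-5p.

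The miRNAs with the most similar course were found among those with a mean of at least 100 normalised CPM in some time point, 295 in the cochlea and 211 in the SOC. In the cochlea, miR-140-5p was closest to the endothelial miR-126a-3p (r = 0.951 over 10 libraries), with means of 6158, 1013 and 3824 normalised CPM at E16, P0 and P16, then to miR-148a-3p (0.951) and miR-384-5p (0.931). miR-126a-3p also came first for miR-140-3p (0.904), followed by miR-145a-3p (0.883) and miR-30b-5p (0.868). For miR-455-5p they were miR-146a-5p (0.851), miR-26a-5p (0.849) and miR-3071-3p (0.837). miR-455-3p was closest to miR-7667-5p (0.989), miR-193b-5p (0.979) and miR-328-3p (0.972), which rose from 6826 to 27879 and 52596 normalised CPM.

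In the SOC the closest miRNAs were of other kinds. miR-140-5p was nearest to the epithelial miR-205-5p (r = 0.962 over 11 libraries) and miR-203-3p (0.957) and to the hair cell miR-182-5p (0.954). miR-140-3p was nearest to the mesenchymal miR-214-3p (0.960) and miR-214-5p (0.954) and to the muscle miR-206-3p (0.896). miR-455-5p was nearest to miR-214-5p (0.963), miR-214-3p (0.936) and the epithelial miR-200c-3p (0.864), and miR-455-3p to miR-206-3p (0.840), miR-214-3p (0.824) and miR-421-3p (0.759). All of these had their highest mean at E16.

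Other miRNAs linked to cartilage were read from a list of 9, all tested in both organs. The cochlea percentages of all tested miRNAs include those with few counts, so they are a low background for list members with more counts. In the cochlea at P0 vs E16, 4 of the 9 were DE and higher (all tested miRNAs: 7.81%) and 1 lower (16.6%), with a median log2 change of 0.24. Between E16 and P16, 3 were DE and higher (10.9%) and 3 lower (18.6%), with a median of -1.78, and at P16 vs P0, 1 was higher (3.91%) and 2 lower (6.58%), with a median of 0.09. miR-574-3p, like miR-455-3p, rose from 4777 ± 556 (SD, n = 2) to 19134 ± 2910 (n = 4) and 40271 ± 16872 (n = 4) normalised CPM and was DE in all 3 comparisons. miR-193b-3p was DE and higher at P0 vs E16 (log2 1.85) and P16 vs E16 (2.64), as was miR-145a-5p (1.202 and 1.70), which also stands in the mesenchymal list. miR-365-3p was DE and higher at P0 vs E16 (1.44). miR-1247-5p was DE and lower at P0 vs E16 (-2.71) and P16 vs E16 (-2.62), and miR-210-3p, which responds to hypoxia, and miR-92a-3p were DE and lower at P16 vs E16 (-1.78 and -2.07). miR-675-5p and miR-675-3p, made from the H19 transcript, had 0 counts in all cochlea libraries of P16.

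In the SOC none of the 9 was DE and higher, 1 was DE and lower at P0 vs E16 (4.18% of all) and 3 at P16 vs E16 (20.0% of all), with medians of -0.57 and -1.956. miR-675-3p was the one at P0 vs E16 (log2 -3.10), and it was DE and lower again at P16 vs E16 (-5.85), with miR-92a-3p (-1.956). miR-675-5p was DE there with 0 counts in every P16 library, against 0.347 to 1.41 normalised CPM at E16. miR-574-3p, DE in every cochlea comparison, was at -0.87 and -0.21 in the SOC, neither DE.

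Some members of the epithelial, mesenchymal, hair cell and muscle lists were lower after E16, as the 4 arms were. The paper reports, from this series, that miR-96 and miR-182 fall as the SOC matures. That fall was seen in tissue dissected in the same way, so it cannot tell the SOC from other tissue. Whether the hair cell list marks other tissue in the SOC libraries was not tested. The epithelial list summed to 926 to 1963 normalised CPM at E16, 56.2 to 195 at P0 and 49.7 to 146 at P16, with no marker at 0 over a whole group at E16. At P0 vs E16, 3 of its 4 tested members were DE and lower, as were 3 of 6 mesenchymal miRNAs (miR-199a-5p, miR-214-3p and miR-214-5p), 1 of 3 hair cell miRNAs (miR-182-5p) and 1 of 2 muscle miRNAs (miR-206-3p), beside 4.18% of all tested miRNAs. The other tested members of these lists were not DE there. miR-214-3p went from 554 to 1894 normalised CPM at E16 to 15.2 to 189 at P0 and 9.31 to 50.7 at P16, and the muscle miR-206-3p from 96.7 to 250 to 3.48 to 7.79 and 2.97 to 6.58. The summed mesenchymal list stayed between 13794 and 25671 at all ages, of which miR-143-3p, not DE, held 13608 to 25315. The neuronal list had no DE member at P0 vs E16, and the blood and endothelium list had none. The part of tissue outside the SOC in the fall of the 4 arms was not tested.

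**Figure D5:**
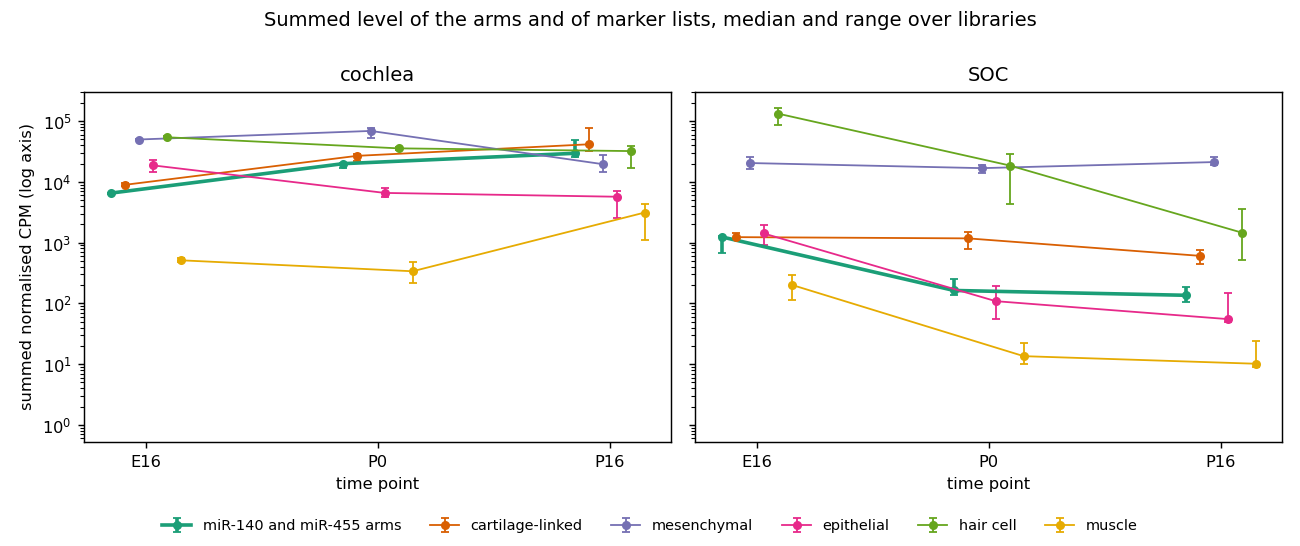
Summed normalised CPM (log axis) of the 4 arms and of 5 marker lists by time point in the cochlea and the SOC; points are medians over libraries and bars run from the lowest to the highest library. In the SOC the arms, the epithelial, hair cell and muscle lists are all highest at E16, and in the cochlea the sum of the arms, mostly miR-455-3p, and that of the cartilage-linked list, mostly miR-574-3p, are higher at P0 and P16 than at E16; sums follow their most abundant miRNA and not each member.

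In the cochlea the same marker lists were read. The percentages of all given beside them again include miRNAs with few counts and are a low background for members with more counts. The epithelial list summed to 14737 to 22575 normalised CPM at E16, 5657 to 7803 at P0 and 2498 to 7050 at P16. At P0 vs E16, 3 of its 7 tested members were DE and lower (16.6% of all) and 0 were higher (7.81% of all). Of 8 tested mesenchymal miRNAs 4 were DE and lower at P0 vs E16 (16.6% of all) and 1 was higher (7.81% of all), with a median log2 change of -1.55. Their sum was 48069 to 51249 normalised CPM at E16, 52832 to 77802 at P0 and 14710 to 27492 at P16, most of it miR-214-3p, which was not DE at P0 vs E16. The hair cell list summed to 52324 to 55846, 33733 to 37995 and 16684 to 38389, with no hair cell miRNA DE. The blood and endothelium list had a low point at P0 like both miR-140 arms, from 7504 to 7914 at E16 to 976 to 1637 at P0 and 2739 to 7718 at P16. At P0 vs E16 all 4 of its tested members were DE and lower (16.6% of all), and 2 were DE and higher at P16 vs P0 (3.91% of all). The neuronal list was also lower at P0 (674 to 1353) than at E16 (3878 to 4379), with 4 of 6 members DE and lower, beside the same 16.6% of all. The oligodendrocyte list rose to 716 to 1354 at P16 from 43.4 to 68.1 at E16, and the muscle list to 1097 to 4295 from 474 to 549. The part of these tissues in the course of the 4 arms was not tested.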

How the data were processed

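Small RNA of 21 libraries was analysed. The authors deposited 1 table of raw counts per mature miRNA and library, not normalized, with 1647 miRNAs, no unnamed entry and 0 columns of other samples. Their notes name mm10, Bowtie2 2.2.5 and DESeq2, the paper Bowtie and MirGeneDB, whereas the table uses miRBase names; the counting step is not given in the sources used here.

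Totals ran from 124400 to 447419 counts in the cochlea and from 8309669 to 18053698 in the SOC, so 1 count at the median total was worth 5.08 and 0.0854 CPM. No 2 replicates agreed within sampling noise (chi-square per degree of freedom at least 5.95). Nothing beyond the labels ties replicates to separate litters, so p-values measure the spread between these samples.

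In each organ, miRNAs (896 cochlea, 694 SOC) with 2 or more replicates of an age above 1 CPM were tested with edgeR 4.0.16 in R 4.3.3 (TMM, quasi-likelihood F test, Benjamini-Hochberg FDR). The standard error is the log2 fold change divided by the root of F, and normalised CPM are CPM over TMM-scaled totals. DE meant FDR under 0.05, fold over 1.5 and no overlap of replicates. Interactions used the 545 miRNAs tested in both organs. Ratios within a library (0.5 counts added) were tested with exact two-sided permutation (SciPy 1.17.1). The procedure was tested on simulated data. Alternatives were other scalings, filters, DESeq2 1.42.0, limma 3.58.1, a replicate block, library sets, thinned SOC counts and leaving out each library. In the SOC, deviations of same-numbered E16 and P0 libraries correlated at 0.251 to 0.490 in 4 of 4 pairs. The limit set for pairing was 0.1, and pairs with P16 and in the cochlea did not all pass it. Differently numbered libraries of set A also passed it, E16 replicate 3 with P0 replicate 2 at 0.409 and E16 replicate 2 with P0 replicate 3 at 0.255. Pairing by number is therefore not established.

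Named miRNAs were the 4 arms, the marker lists and, for each arm and organ, the 3 miRNAs closest in Pearson r. The arms, lists and library sets were chosen with earlier results of these data known. The listed miR-126a-5p, miR-133b-3p, miR-199a-3p, miR-199b-3p, miR-219a-5p and miR-486a-5p were not analysed here.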

Additional observations from a re-analysis of the deposited data

Results flagged for a closer look

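In 3 of the 28 groups of at least 4 libraries examined, 1 library lay far from the others, where chance picks out about 1 group in 20. miR-455-5p was at 190 normalised CPM in SOC E16 replicate 4, below the 375 to 410 of the other E16 libraries. miR-455-5p was at 125 normalised CPM in SOC P0 replicate 4, above the 29.3 to 35.6 of the others. In the same library the log2 ratio of miR-140 to miR-455 counts was -0.20, below the other P0 libraries.

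Changes over time differed between the organs, by the edgeR interaction test, in 5 cases. At P0 vs E16 the SOC change minus the cochlea change was -4.90 on the log2 scale for miR-455-3p. Every P0 library lay above every E16 library in the cochlea and below every E16 library in the SOC. At P16 vs E16 it was -4.53 for miR-455-3p, -3.30 for miR-140-5p and -2.61 for miR-140-3p. At P16 vs P0 it was -3.19 for miR-140-5p. Organ, mouse strain, RNA isolation, library kit and depth are the same split in all of these and cannot be told apart.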

How the results depend on the processing

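The values of a change that passed its test kept their direction in every alternative run, and those that turned sign were small and had not passed. For miR-140-3p at P16 vs E16 in the cochlea, the log2 change became 0.033 with RLE size factors, 0.035 with DESeq2, 0.19 with at least 10 counts in every library and 0.064 with all 21 libraries in one fit, and -0.30 to 0.12 over the fits without 1 library. For miR-455-5p there it became -0.34 with library totals and -0.12 with limma, and -0.71 to 0.82 without 1 library; the filter of 10 counts gave no value for this arm. For miR-140-3p at P16 vs P0 in the SOC it became -0.71 with the library set as covariate (edgeR FDR = 0.0394, not DE because the ages overlapped), -0.96 in set B, -0.42 with thinned counts and -0.87 without set C (chosen after seeing the data), and -0.17 to 0.58 without 1 library. For miR-455-5p there it became 0.0091 with the filter of 10 counts, 0.019 in one fit and 0.017 with thinned counts, and -0.53 to 0.63 without 1 library. The organ difference of miR-140-5p at P0 vs E16 became 0.66 with library totals and 0.078 with the set covariate, and -0.37 to 0.15 without 1 library. That of miR-455-3p at P16 vs P0 became -0.22 with the set covariate and -0.70 with thinned counts. The arm ratio changes at P0 vs E16 in the SOC ran from -0.68 to 0.29 for miR-140 and from -0.27 to 0.51 for miR-455 without 1 library.

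The number of DE arms fell to 1 at P0 vs E16 and 1 at P16 vs P0 in the cochlea with all 21 libraries in one fit, without miR-140-3p in both and without miR-455-3p in the first. In set B alone, where P0 and P16 have 1 library each and the spread comes from 2 E16 libraries, the count says nothing about the changes; it was 0 at P0 vs E16 and 2 at P16 vs E16 in the SOC. At P16 vs P0 in the SOC it was 1 with the filter of 10 counts and 0 to 2 without 1 library. With the set covariate 2 arms differed between organs at P0 vs E16 and 3 at P16 vs P0. Apart from construction, the cause was not tested.

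With the replicate block, the 4 SOC arms at P0 vs E16 were at -2.70 (miR-140-3p), -2.65 (miR-140-5p), -2.78 (miR-455-3p) and -2.96 (miR-455-5p), all still DE. That the numbers pair these libraries is not established, since differently numbered set A libraries correlated too. Elsewhere the libraries share only a number. There the block gave 0.13 for miR-140-3p at P16 vs E16 in the cochlea and 0.060 for miR-455-5p at P16 vs P0 in the SOC. The block also gave 0.086 for the organ difference of miR-140-5p at P0 vs E16 and 1 DE arm at P16 vs P0 in the SOC (miR-455-3p, 1.57). It ended the cochlea call of miR-140-3p at P0 vs E16 (-1.07).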
